A study of Ovis aries with 8 samples.

Results

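FGF7, FGF10, PTCH1 and AREG are signals and receptors of lung growth, and their transcripts were followed here in the lungs of fetal sheep given aldosterone. Probes were taken by gene name (FGF7, FGF10, PTCH1 or AREG) or by a description holding the words fibroblast growth factor, keratinocyte growth factor, patched or amphiregulin. That rule found 19 of the 15008 probes on the array, for 9 of the 915 genes that could be named. FGF7 and FGF10 had 4 probes each, PTCH1 had 2 and AREG had 1, and the other 8 probes stood for FGF1, FGF2, FGF18, FGFR2 and FGFR3.

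The aldosterone group was 4 fetuses, each given 0.2 mg of aldosterone by infusion over 48 hours. Aldosterone is a steroid of the adrenal cortex and a ligand of the mineralocorticoid receptor. The control group was 4 fetuses that received vehicle, each the twin of a treated fetus. All 8 were at about 130 days of gestation, where term is 147 days, and in both groups infusion began 5 days after surgery. The RNA of each lung was labelled with Cy3 and hybridised to its own 1-colour Agilent sheep array.

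The developing lung grows by signals that pass between mesenchyme and epithelium. FGF10 and FGF7 (keratinocyte growth factor) are made by mesenchyme and act on the IIIb form of FGFR2 on epithelial cells; in mice FGF10 drives the budding and branching of airways, and FGF7 promotes epithelial division and type II cell maturation. PTCH1 is the receptor that holds the hedgehog pathway off until a hedgehog ligand binds, and it is itself a transcriptional target of that pathway. AREG (amphiregulin) is a membrane-bound ligand of the epidermal growth factor receptor that is shed to act on neighbouring cells.

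Several of these probes were near copies of each other, and their sequences are shown because they decide how many separate measurements stand behind a gene. Each probe was 60 bases long. In the sequences below, read from the scanner files and printed 5′ to 3′, capitals mark the run shared with the other probe of the pair, and the FGF7 pair has no capitals because its probes share no run longer than 5 bases.
FGF10 A_70_P068086: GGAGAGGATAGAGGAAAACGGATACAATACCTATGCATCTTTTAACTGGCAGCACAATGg
FGF10 A_70_P068087: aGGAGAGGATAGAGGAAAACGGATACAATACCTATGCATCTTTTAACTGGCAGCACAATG
FGF7 A_70_P029931: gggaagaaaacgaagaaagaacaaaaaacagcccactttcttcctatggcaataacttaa
FGF7 A_70_P029932: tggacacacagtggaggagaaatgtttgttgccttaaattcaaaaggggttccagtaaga
PTCH1 A_70_P068161: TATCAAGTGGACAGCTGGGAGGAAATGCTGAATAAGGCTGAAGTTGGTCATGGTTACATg
PTCH1 A_70_P068162: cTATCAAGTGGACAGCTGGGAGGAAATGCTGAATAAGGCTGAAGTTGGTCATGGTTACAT
FGFR2 A_70_P041781: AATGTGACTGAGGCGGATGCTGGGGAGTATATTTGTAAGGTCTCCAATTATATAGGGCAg
FGFR2 A_70_P041782: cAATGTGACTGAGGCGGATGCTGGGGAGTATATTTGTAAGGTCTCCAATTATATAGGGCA
FGFR3 A_70_P031241: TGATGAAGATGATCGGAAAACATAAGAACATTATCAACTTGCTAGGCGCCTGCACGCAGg
FGFR3 A_70_P031242: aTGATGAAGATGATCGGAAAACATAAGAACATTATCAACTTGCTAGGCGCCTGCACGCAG

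The paired probes of FGF10, PTCH1, FGFR2 and FGFR3 shown above share 59 of their 60 bases, so the members of each pair read the same stretch of transcript. The FGF7 probes A_70_P041666 and A_70_P041667 also share 59 bases; they come from an expressed sequence tag that the array design names FGF7. The FGF2 probes share 40 bases. The other 2 FGF10 probes, A_70_P012571 and A_70_P012572, share no run over 7 bases with each other or with the pair shown.

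Levels are given as the log2 processed signal less the 75th percentile of the same array, so a value of 0 is as bright as that percentile; levels of different probes are not compared. The share of spots well above background ran from 76.49% to 85.41% over the arrays. The control lung of replicate 4 stood apart from the other controls by Dixon's test on 5.24% of kept probes, against 0.49% to 1.43% for each of the other 7 lungs within its own group. The type II cell genes SFTPA1, SFTPB and SFTPC and the mesenchymal genes COL3A1, VIM and CNN1 were well above background on all 8 arrays. Of the 19 probes found, 18 were well above background on at least 4 arrays and were tested. In whole tissue, fewer cells of a type and less RNA per cell cannot be told apart.

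No probe passed limma's threshold of 0.05 on the adjusted p-value, either among these 18 or on the whole array (0 of 12168, or 0%). At an unadjusted p under 0.05 limma gave 1 of the 18, an FGF10 probe, where it gave 1.87% of all tested probes. With 1 lung left out at a time that count ran from 0 to 3 of the 18, against 1.18% to 3.47% of all tested probes. The count of 3 came without the control lung of replicate 4 (3.18% of all tested probes). Those 3 were all FGF10 probes, among them both near copies A_70_P068086 and A_70_P068087. Without the aldosterone lung of replicate 2 the 1 probe was that of FGF18. All 10 probes of FGF7, FGF10 and PTCH1 had lower means in aldosterone lungs than in control lungs, and the AREG probe had a higher one; after normexp background correction and quantile normalization PTCH1 A_70_P068162 was no longer lower. The background for that direction is 48.5% of all tested probes with a lower mean, and overlapping probes of a gene repeat 1 measurement. The 11 probes of the 4 genes had a median log2 difference of -0.23, against 0.01 over all tested probes. The 7 tested probes of the other genes had a median of 0.04, with 4 higher and 3 lower.

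Other cells of the lung were followed by marker lists, each given as the mean deviation of its measured genes from the 8-lung mean. The mesenchyme list, with 3 of 11 genes measured, had 2 genes higher and 1 lower with a median difference of 0.16, and ran from -0.0034 to 0.11 in aldosterone lungs, against -0.10 to 0.03 in control lungs. The granulocyte and mast cell list had lower means in aldosterone lungs on 4 of 4 genes, with a median of -0.76, and ran from -0.79 to 0.07 in aldosterone lungs, against -0.16 to 0.90 in control lungs. The red blood cell list had lower means on 3 of 3 genes, with a median of -0.72, and its groups overlapped widely. The T and natural killer cell list and the macrophage and monocyte list had 2 genes higher and 1 lower each, with medians of 0.39 and 0.42. Medians were -0.08 for both the lung epithelium and the endothelium lists, and the 1 measured B cell gene gave 0.16. None of these genes passed the adjusted threshold in limma (0 of 12168 probes), and the part of these cells in the FGF7, FGF10 and PTCH1 differences was not tested.

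FGF10 was lower in aldosterone lungs on all 4 probes, by -0.32 to -0.23 on the log2 scale. On A_70_P068087, one of the 59-base pair, the level was -3.37, -3.34, -3.08 and -3.09 in aldosterone lungs of replicates 1 to 4, against -3.03, -2.74, -2.85 and -2.96 in the control lungs. All 4 aldosterone lungs lay below all 4 control lungs, and this was the only one of the 18 probes whose groups did not overlap; 1.31% of all tested probes had groups that did not overlap. The log2 difference was -0.32 ± 0.14 (SE, n = 4 per group), a fold of 0.799 with a 95% interval of 0.645 to 0.989. It did not pass over all probes in limma (adjusted p = 1.00), and its unadjusted limma p was 0.0414. That p was over 0.05 in 4 of the 8 fits that left out 1 lung: limma gave 0.0970 without the aldosterone lung of replicate 1, 0.0962 without that of replicate 2, 0.117 without the control lung of replicate 2 and 0.0891 without that of replicate 3. The difference stayed between -0.37 and -0.27 in those 8 fits. With all 8 lungs, the other settings gave unadjusted limma p-values from 0.0229 (authors' values) to 0.0496 (no filter), and no adjusted p passed. A further FGF10 probe was under 0.05 in limma in some of these settings, but not always the same one. With normexp (1.46% of all tested probes) it was A_70_P012571. With the authors' values (1.65%) and array weights (10.5%) it was A_70_P068086, which repeats the stretch read by A_70_P068087.

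The near copy of that probe, A_70_P068086, read -3.19, -3.13, -3.08 and -3.01 in aldosterone lungs, against -2.88, -2.70, -2.84 and -3.07 in control lungs. Here the groups overlapped, because the control lung of replicate 4 was below the aldosterone lung of the same number. That copy gave a log2 difference of -0.23 ± 0.13.

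The brightest FGF10 probe, A_70_P012572, read -1.49, -1.34, -0.92 and -0.92 in aldosterone lungs, against -1.09, -0.80, -0.86 and -0.87 in control lungs. The aldosterone lungs of replicates 1 and 2 were low, and those of replicates 3 and 4 differed from their same-numbered controls by -0.06 and -0.05. For this probe the difference was -0.26 ± 0.17, a fold of 0.834 with a 95% interval of 0.638 to 1.09.

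The fourth FGF10 probe, A_70_P012571, read -2.74, -2.73, -2.36 and -2.60 in aldosterone lungs, against -2.39, -2.22, -2.16 and -2.54 in control lungs, with a log2 difference of -0.28 ± 0.15. Its groups overlapped by the aldosterone lung of replicate 3 and the control lungs of replicates 1 and 4. Across the 4 probes the aldosterone lung was below its same-numbered control in 4 of 4 pairs on 3 probes and in 3 of 4 pairs on A_70_P068086. The 4 probes read 1 gene in the same lungs, so these counts are not separate results. Replicate 2 gave the widest gap on every FGF10 probe, from -0.60 to -0.43, and replicate 4 the narrowest, from -0.13 to 0.06. Leaving out 1 lung at a time moved the difference of the brightest probe between -0.35 and -0.16; leaving out the aldosterone lung of replicate 1 gave the smallest difference, -0.16.

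**Figure D1:**
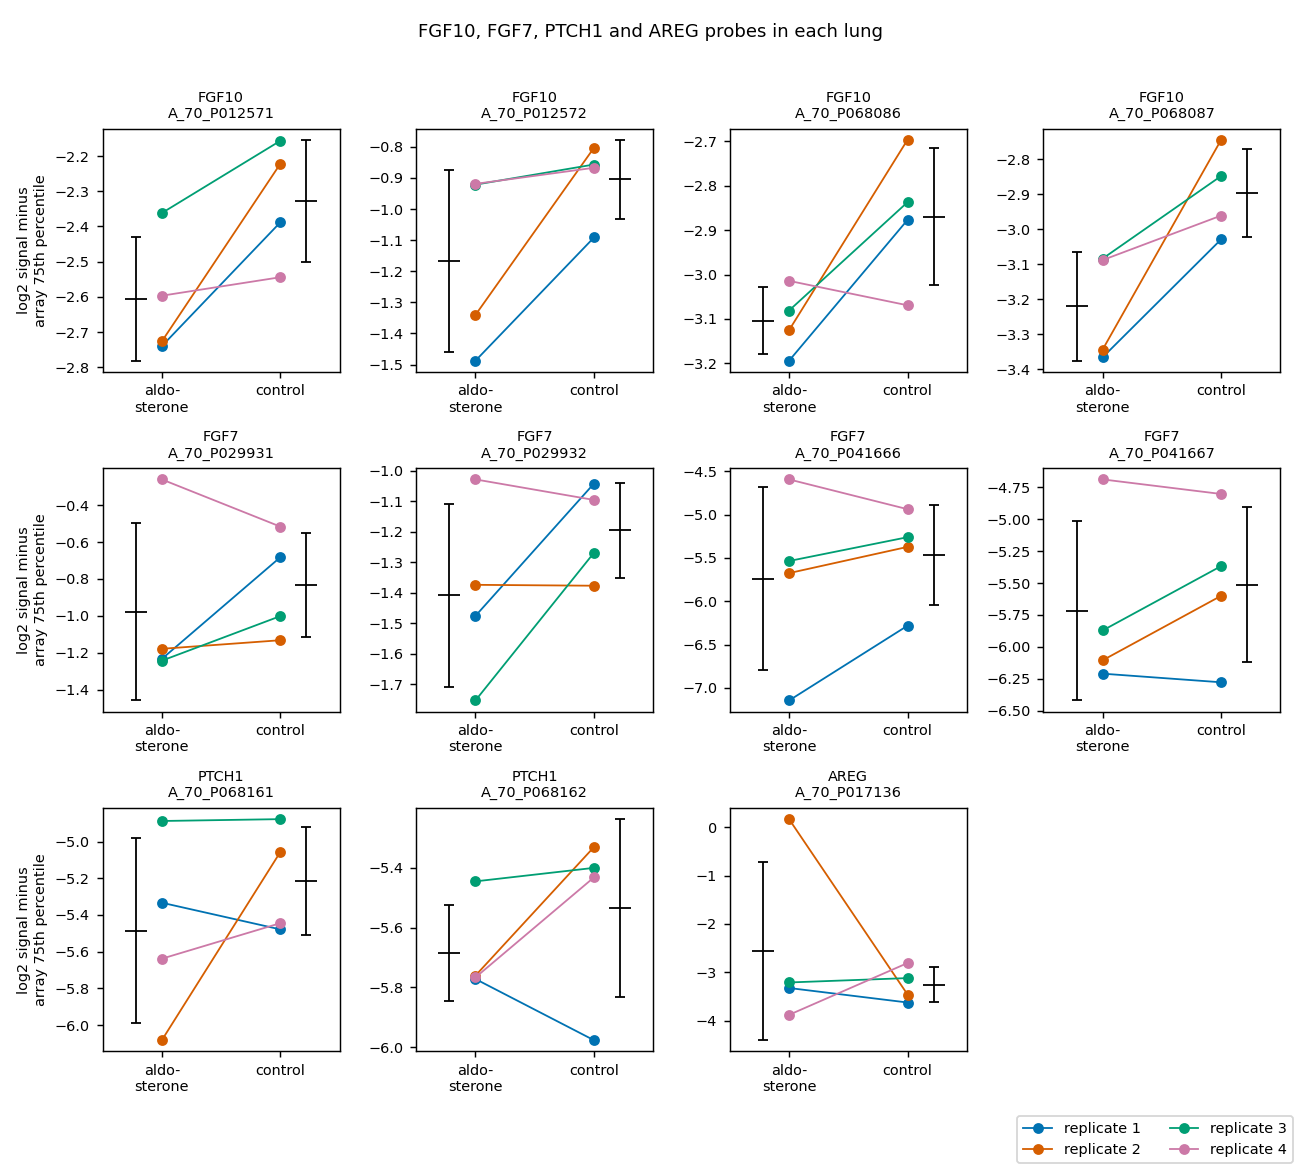
Level of each FGF10, FGF7, PTCH1 and AREG probe in every lung, as log2 signal minus the array's 75th percentile, on axes that differ between panels. Points are lungs, lines join the same replicate number, and the black marks give the mean and SD of 4 lungs. The aldosterone and control lungs separate fully only on FGF10 A_70_P068087, and 1 aldosterone lung lies far above the rest for AREG.

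FGF7 had lower means in aldosterone lungs on its 4 probes, and each 95% interval of the difference included 0. On A_70_P029931, the brightest, the level was -1.23, -1.18, -1.24 and -0.26 in aldosterone lungs, against -0.68, -1.13, -1.001 and -0.52 in control lungs. The aldosterone lung of replicate 4 was the highest of all 8, and by Dixon's test it stood apart from the other 3 of its group; the control lung of replicate 4 was the highest control. The log2 difference was -0.15 ± 0.25, a fold of 0.904 with a 95% interval of 0.607 to 1.35.

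This difference depended on single lungs. Leaving out the aldosterone lung of replicate 4 gave -0.38, and leaving out the control lung of replicate 4 gave -0.04. The values without the aldosterone lungs of replicates 1, 2 and 3 were -0.06, -0.08 and -0.06, and those without the control lungs of replicates 1 and 2 were -0.10 and -0.24. Array weights gave -0.08. None of these passed in limma.

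The second coding probe of FGF7, A_70_P029932, read -1.48, -1.37, -1.75 and -1.03 in aldosterone lungs, against -1.04, -1.38, -1.27 and -1.10 in control lungs. Replicate 4 was again the highest of the aldosterone lungs, but replicate 1 was the highest control, and the groups overlapped. The groups differed by -0.21 ± 0.18 on the log2 scale.

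The FGF7 tag probes A_70_P041666 and A_70_P041667 were dim, and A_70_P041666 was not well above background in the aldosterone lung of replicate 1. A_70_P041667 read -6.21, -6.11, -5.87 and -4.69 in aldosterone lungs, against -6.28, -5.60, -5.37 and -4.80 in control lungs. Both lungs of replicate 1 were at the bottom and both lungs of replicate 4 at the top, and the difference between the groups was -0.21 ± 0.40. A_70_P041666 gave -0.27 ± 0.51 with the same replicate numbers at the bottom and the top. After normexp and quantile normalization the differences were -0.05 ± 0.12 for A_70_P041666 and -0.06 ± 0.11 for A_70_P041667. Across the 8 lungs the coding probes followed each other at a Pearson r of 0.86, while coding against tag probes gave 0.34 to 0.71; these are descriptions over twins on 1 slide.

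PTCH1 was measured by a pair of dim probes, each well above background on 3 aldosterone and 4 control arrays. A_70_P068161 read -5.33, -6.08, -4.89 and -5.64 in aldosterone lungs, against -5.48, -5.06, -4.88 and -5.44 in control lungs. The aldosterone lung of replicate 2 was the lowest of all, and in replicate 3 both lungs were high and differed by -0.01. The log2 difference was -0.27 ± 0.26, with a 95% interval of 0.548 to 1.25 as a fold.

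The near copy A_70_P068162 read -5.77, -5.76, -5.45 and -5.77 in aldosterone lungs, against -5.98, -5.33, -5.40 and -5.43 in control lungs. On this probe the aldosterone lung of replicate 3 stood above its group and the control lung of replicate 1 below its own. The log2 difference was -0.15 ± 0.18, and it was 0.0033 after normexp background correction and quantile normalization.

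Although they share 59 bases, the PTCH1 probes followed each other at a Pearson r of only 0.65 over the 8 lungs. The SD of their disagreement was 0.31 on the log2 scale. That is a spread over single lungs, which is not the scale of a difference between group means. The brighter probe gave -0.07 without the aldosterone lung of replicate 2, -0.16 without the control lung of replicate 3 and -0.47 without the aldosterone lung of replicate 3. It gave -0.08 after normexp and quantile normalization and -0.16 with array weights.

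AREG was set apart by 1 lung. Its single probe read -3.32, 0.17, -3.21 and -3.88 in aldosterone lungs, against -3.62, -3.46, -3.12 and -2.81 in control lungs. The aldosterone lung of replicate 2 was 3.38 above the next aldosterone lung on the log2 scale, or 10.4-fold, and 12.4-fold above its same-numbered control. Among kept probes, 7 had a wider gap between that lung and the other aldosterone lungs.

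The log2 difference for AREG was 0.69 ± 0.78, a fold of 1.62 with a 95% interval of 0.475 to 5.49. It was -0.22 when the aldosterone lung of replicate 2 was left out, and the other 3 aldosterone lungs averaged -3.47 ± 0.36 (SD, n = 3), against -3.25 ± 0.36 in control lungs (SD, n = 4). The aldosterone lung was above its same-numbered control in 2 of 4 pairs. Without the aldosterone lung of replicate 1 the difference was 0.95, without that of replicate 4 it was 1.13, and without that of replicate 3 it was 0.91.

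**Figure D2:**
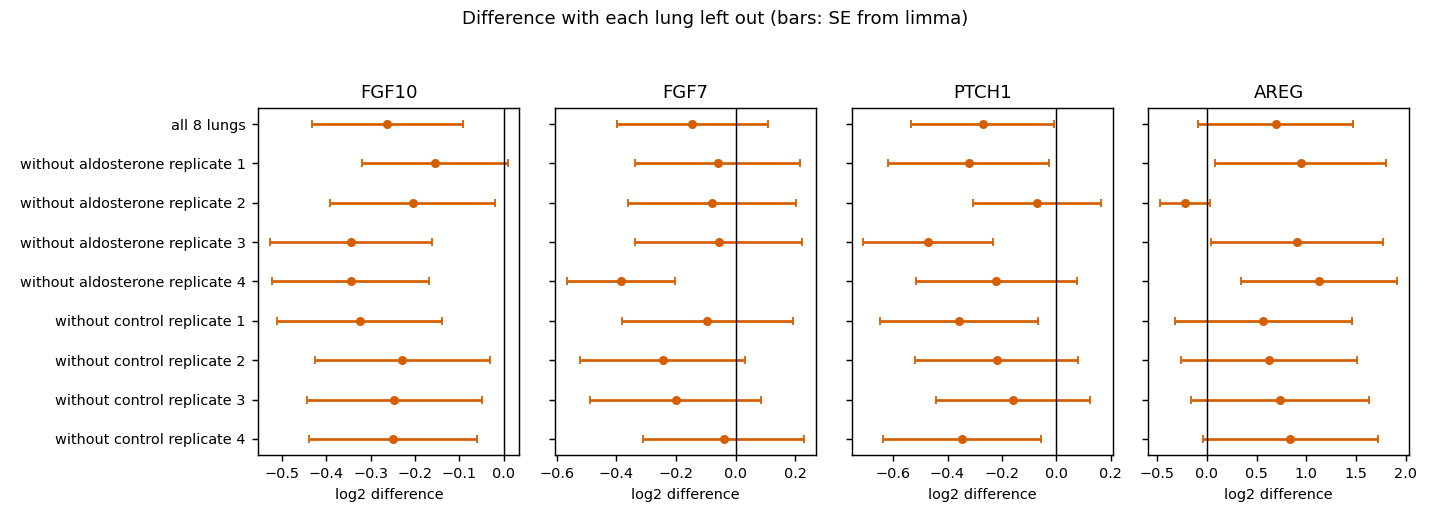
Log2 difference, aldosterone minus control, of the brightest probe of FGF10, FGF7, PTCH1 and AREG with all 8 lungs and with each lung left out in turn; bars are limma's standard errors and axes differ between panels. The FGF10, FGF7 and PTCH1 values stay below 0 in all of these fits, and AREG crosses to -0.22 without the aldosterone lung of replicate 2.

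Markers of other cells were set beside the AREG value of that lung. Of the macrophage and monocyte list 3 of 6 genes were measured. As a mean over those genes, the list's deviation from the 8-lung mean was 0.77 in the aldosterone lung of replicate 2, against -0.30 to -0.21 in the other aldosterone lungs and -0.61 to 0.55 in control lungs. The 3 genes did not move together: CYBB was highest in that lung, CD14 in the aldosterone lung of replicate 4 and ITGAM in the control lung of replicate 2, and ITGAM was well above background on only 1 aldosterone and 3 control arrays. All 3 red blood cell genes were measured too, at 1.28 in that lung, against -1.53 to 0.25 in the other aldosterone lungs and -0.68 to 1.27 in control lungs. The 4 measured genes of the lung epithelium list were at -0.01 in that lung, inside the range of -0.40 to 0.31 of the other aldosterone lungs. In that lung the T and natural killer cell list was at 0.39 and the mesenchyme list at 0.04. The granulocyte and mast cell list was there at -0.22, the B cell list at -0.18 and the endothelium list at -0.40. The T and natural killer cell, mesenchyme, granulocyte and mast cell, B cell and endothelium values each lay inside the range of the other aldosterone lungs. The part of these cells in the AREG level was not tested.

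The ligand and receptor neighbours of AREG showed which of them shared its high lung. NRG1, a ligand of the ERBB3 and ERBB4 receptors, read -6.33, -3.72, -6.59 and -6.86 in aldosterone lungs, against -7.44, -7.44, -6.45 and -6.72 in control lungs, and only 2 arrays of each group held it well above background. The aldosterone lung of replicate 2 was again far above the others. The NRG1 difference was 1.14 ± 0.64; it was 0.42 without that lung and 0.27 ± 0.20 after normexp and quantile normalization. EGFR, the receptor of AREG, gave -0.07 ± 0.21, and ERBB2, which pairs with the other receptors of the family, gave 0.24 ± 0.31. Neither was high in that lung. EGFR read -3.78 there, the lowest of all lungs, against -3.39 to -3.12 in the other aldosterone lungs and -3.75 to -2.99 in control lungs. Without that lung the EGFR difference was 0.067. ERBB2 read -2.83 there, inside the range of -3.53 to -2.72 of the other aldosterone lungs. Of the 11 listed genes of the EGF family, AREG aside, these 3 were measured, with 2 higher and 1 lower, and 0 passed the adjusted threshold in limma.

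The receptor of FGF7 and FGF10 was measured by a pair of probes designed on a partial FGFR2 IIIb sequence. FGFR2 A_70_P041781 read -3.21, -2.83, -2.80 and -3.14 in aldosterone lungs, against -2.99, -2.89, -3.30 and -2.80 in control lungs. The difference between same-numbered lungs was 0.50 in replicate 3 and -0.34 in replicate 4, and the group difference was -0.0020 ± 0.16. Its 95% interval, a fold of 0.771 to 1.29, does not exclude changes of the size seen for FGF10. The near copy gave 0.04 ± 0.17, and the sign of both changed with the lung left out.

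FGFR3, a receptor of FGF18 among other ligands, varied between the replicate numbers and hardly within them. FGFR3 A_70_P031241 read -3.41, -3.97, -4.27 and -4.80 in aldosterone lungs of replicates 1 to 4, against -3.50, -4.10, -4.25 and -4.82 in control lungs. The lungs of a number differed by 0.02 to 0.13, while the pair means spanned 1.36. Same-numbered lungs shared 99.7% of the spread left after the group means were removed, more than for 99.8% of all kept probes, where the median was 71.8%. Those 2 lungs also lay side by side on the slide. The 75th percentile of the array was highest in replicate 1 and lowest in replicate 4 in both groups. It was 10.73 and 10.23 there in aldosterone arrays, and 10.70 and 10.29 in control arrays. The twin set, the place on the slide and the brightness of the array therefore cannot be told apart.

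The group difference of that FGFR3 probe was 0.05 ± 0.34, and its standard error was 0.11 with the replicate number as a block. The near copy of it read -3.64, -4.08, -4.46 and -4.48 in aldosterone lungs, against -3.58, -4.17, -4.44 and -4.80 in control lungs, and its shared part was 96.4%. The FGF7 tag probes came next, at 93.1% and 91.6%. The FGF10 pair was at 27.1% and 48.8%, and AREG at 41.0%. FGF10 A_70_P012571 and A_70_P012572 were at 69.2% and 70.8%. Lungs that do not follow each other also get a part by this measure. The values of the FGF10 pair and of AREG therefore do not show that same-numbered lungs followed each other.

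**Figure D3:**
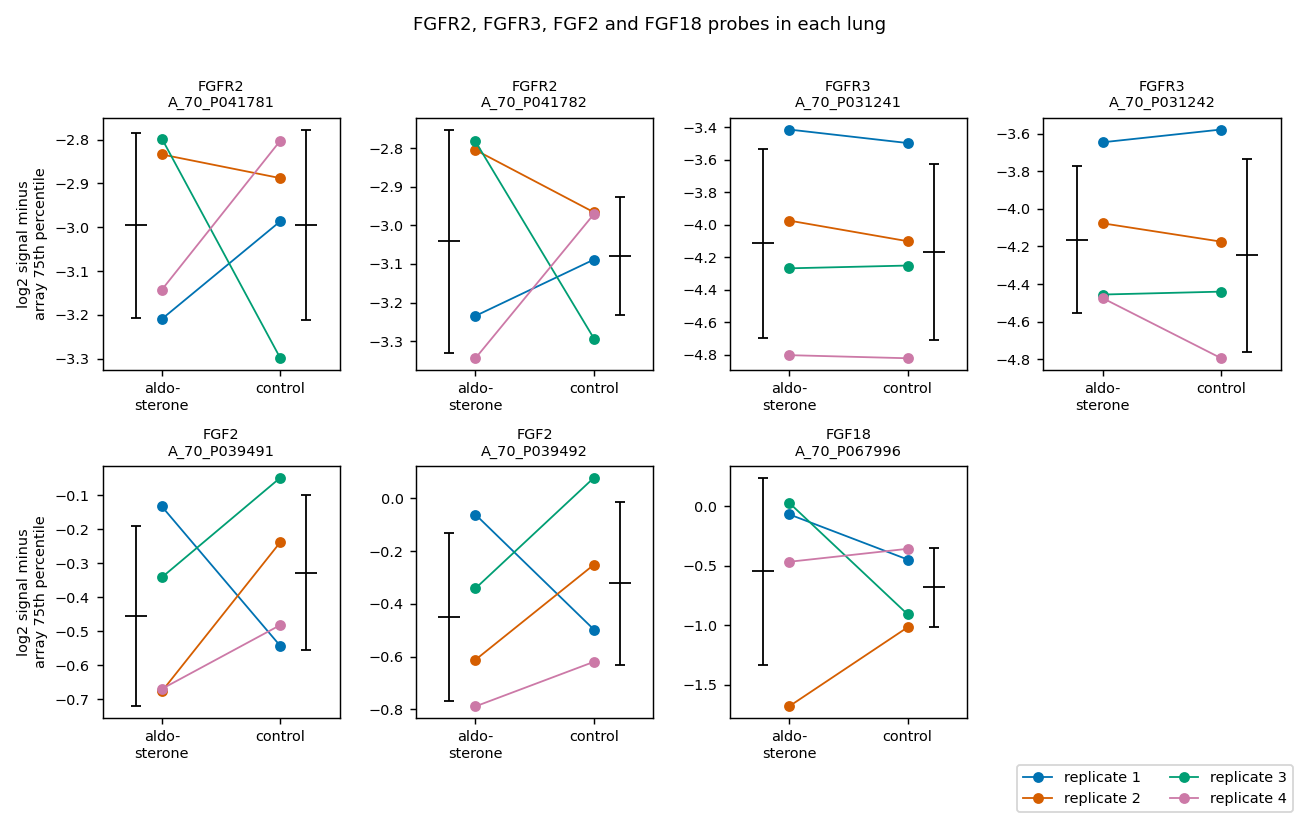
Level of each FGFR2, FGFR3, FGF2 and FGF18 probe in every lung, as log2 signal minus the array's 75th percentile, on axes that differ between panels; points are lungs, lines join the same replicate number, and black marks give mean and SD of 4 lungs. The lines of FGFR3 A_70_P031241 run nearly flat at 4 separate heights, while the FGFR2 and FGF2 lines cross.

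With all 8 lungs, the remaining ligands that were tested had differences smaller than their standard errors. FGF2, a heparin-binding factor of mesenchyme and vessels, gave -0.13 ± 0.18 and -0.13 ± 0.21 on its 2 probes, of which A_70_P039491 was the mean of 5 spots. FGF2 A_70_P039491 read -0.13, -0.68, -0.34 and -0.67 in aldosterone lungs, against -0.54, -0.24, -0.05 and -0.48 in control lungs. The aldosterone lung was the higher of its pair in replicate 1 alone.

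FGF18, a mesenchymal factor of alveolar growth in mice, read -0.07, -1.68, 0.03 and -0.47 in aldosterone lungs, against -0.45, -1.02, -0.91 and -0.36 in control lungs. Both lungs of replicate 2 were the lowest of their groups. The FGF18 difference was 0.14 ± 0.37, and leaving out the aldosterone lung of replicate 3 gave -0.06. Without the aldosterone lung of replicate 2 the difference was 0.52 ± 0.22, with an unadjusted limma p of 0.0494 and an adjusted p of 1.00, and array weights gave 0.51 ± 0.31.

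FGF1, a ligand of all FGF receptors, was the probe left out of the test, being well above background on 2 aldosterone arrays and 1 control array. It read -6.97, -5.60, -6.05 and -6.65 in aldosterone lungs, against -6.77, -8.40, -7.27 and -6.76 in control lungs, and no fold is given for it. The lowest reading was that of the control lung of replicate 2.

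**Figure D4:**
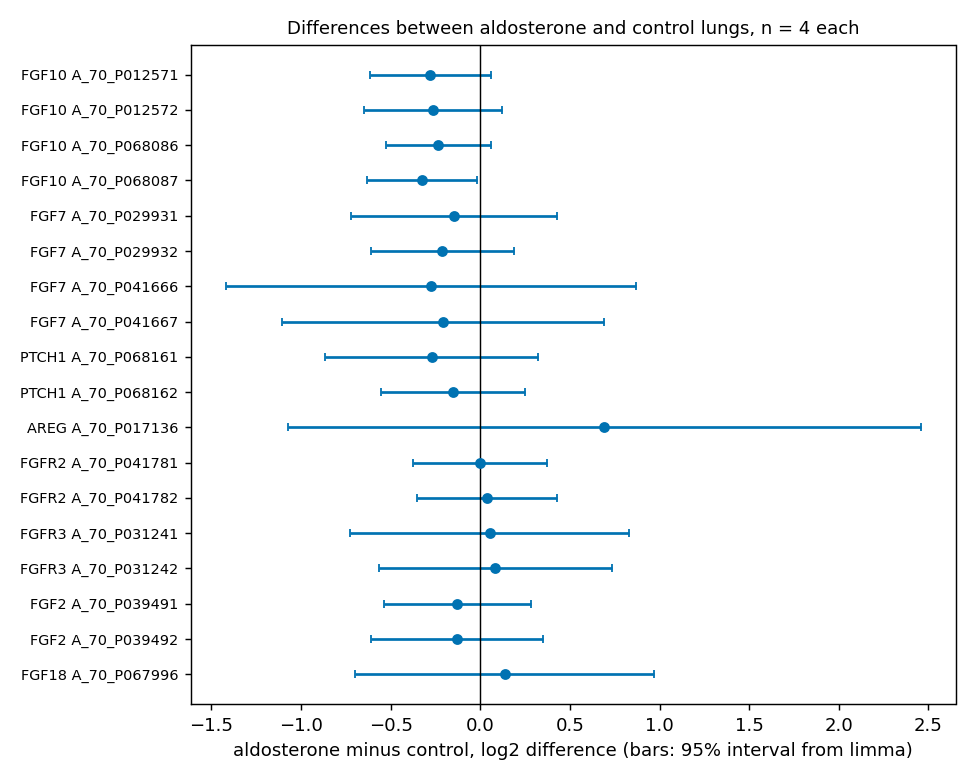
Log2 difference, aldosterone minus control, for each of the 18 tested probes with its 95% interval from limma (4 lungs per group). The interval of FGF10 A_70_P068087 alone leaves out 0, and the AREG interval is the widest.

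The other genes of these pathways were mostly not named on any probe used here. Of 42 listed genes of the FGF, hedgehog and EGF pathways, beside the 4 genes themselves, 8 were measured, 5 with a higher and 3 with a lower mean in aldosterone lungs. In limma 0 of these passed the adjusted threshold, where 0% of all probes did. At an unadjusted p under 0.05 limma gave 0 of the 8, where it gave 1.87% of all tested probes. FGF2, FGF18, FGFR2 and FGFR3 are among these 8 and were also counted above with the probes found by the rule. SMO, the protein that PTCH1 restrains, was the 1 measured of 12 hedgehog genes. It read -3.37, -3.23, -3.44 and -3.51 in aldosterone lungs, against -3.29, -3.12, -3.24 and -3.98 in control lungs, a difference of 0.02 ± 0.20. Its control lung of replicate 4 was low, and without it the difference was -0.17. SHH, the hedgehog ligand of lung epithelium, was not well above background on any array with either of its 2 probes.

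By the correlation of levels over the 8 lungs, the named genes most like each of the 4 were sought among 728. These are the top of a long search over twins on 1 slide. For FGF10 they were CSN3 (Pearson r 0.94, Spearman rho 0.69), a milk casein, IFT27 (0.92, rho 0.62), a protein of transport in cilia, and PRKAA2 (0.85, rho 0.98), a catalytic subunit of AMP-activated kinase. For FGF7 they were IL12A (0.94, rho 0.90), the unnamed locus LOC100037663 (0.90, rho 0.81) and CAST (0.89, rho 0.81), the inhibitor of calpains.

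For PTCH1 they were KRTAP4.3 (0.88, rho 0.81), MRCL3 (0.83, rho 0.83) and ITGA4 (0.80, rho 0.90), an integrin subunit of leukocytes. For AREG they were CLDN1 (0.96, rho 0.69), a tight junction protein, atf6 (0.95, rho 0.69), a sensor of endoplasmic reticulum stress, and NRG1 (0.95, rho 0.69). How far this likeness rested on extreme lungs differed between genes. Without the 2 lungs farthest from the median of AREG, r was 0.87 for CLDN1, 0.37 for atf6 and 0.61 for NRG1. In the same way it was 0.62 for CSN3, 0.63 for IFT27 and 0.84 for PRKAA2 with FGF10. It was 0.92 for IL12A, 0.80 for LOC100037663 and 0.60 for CAST with FGF7, and 0.73 for KRTAP4.3, 0.97 for MRCL3 and 0.48 for ITGA4 with PTCH1. Among the 4 genes themselves, FGF10 and PTCH1 had the highest r, 0.53, and PTCH1 and AREG the lowest, -0.63 (rho 0.07).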

How the data were processed

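RNA of 8 fetal sheep lungs was measured on 1-colour arrays. The deposited scanner files give linear intensity per spot. Agilent Feature Extraction 10.1.1.1 was the authors' software, per the file headers, with background subtracted, spatial trends removed and surrogates used near background. A series table that the authors deposited is on a log2 scale; set against each array it equals the log2 intensity less a constant per array, with a median of 0 in each column.

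From 15208 non-control spots, log2 intensity was scaled by subtracting each array's 75th percentile, 74 values with outlier flags were left out, and spots were averaged to 15008 probes. Probes well above background on at least 4 arrays were kept (12168) and compared with limma 3.58.1 in R 4.3.3, in a two-sided test whose p-values were adjusted by the Benjamini-Hochberg method across every kept probe. The model held the group alone. The fit was tested on simulated data. Gene names came from the files and a RefSeq table of assembly ARS-UI_Ramb_v3.0 (726 probes by accession, 498 by symbol, 20 by synonym, 224 by the file's name alone). The probe of a gene with the highest mean over all arrays is called its brightest. The members and lists were chosen with earlier results of these data known. The named genes were all probes found by the rule, the measured genes of the FGF, hedgehog and EGF lists, and 3 genes most like each of the 4. The number of arrays limits the precision.

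After group means were removed, same-numbered samples correlated at 0.45, 0.28, 0.28 and 0.54 over 12146 probes, against -0.45 to 0.20 for different numbers. Every pair was over 0.1, so with the labels' twin design same-numbered samples were set beside each other as pairs and made up the replicate block. The pairing was not used in the main fit. Unless the block is named, standard errors, p-values and intervals come from the model with the group alone. Over kept probes the median standard error was 0.20 in that model and 0.14 with the replicate block. Alternatives were the replicate block, the slide row as a block, normexp with quantile normalization, centring on the median, both other filters, the authors' values, array weights and leaving out each lung.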

Additional observations from a re-analysis of the deposited data

Results flagged for a closer look

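In 5 of 44 groups of 4 lungs examined 1 lung stood apart by Dixon's test at the 95% level, where chance gives about 1 in 20; in these groups overlapping probes count separately. Of these 5, 4 were aldosterone groups and 1 a control group, where over all kept probes 1 lung stood apart in 4.55% of aldosterone groups and 8.02% of control groups. The aldosterone lung of replicate 2 was high for AREG, at 0.17 where the other aldosterone lungs lay from -3.88 to -3.21, and for NRG1, at -3.72 where they lay from -6.86 to -6.33. The aldosterone lung of replicate 4 was high on FGF7 A_70_P029931, at -0.26 where the others lay from -1.24 to -1.18. On PTCH1 A_70_P068162 the aldosterone lung of replicate 3 was high, at -5.45 where the others lay from -5.77 to -5.76, and the control lung of replicate 1 was low, at -5.98 where the others lay from -5.43 to -5.33. The near copy of that PTCH1 probe set no lung apart in either group.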

How the results depend on the processing

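No probe of the array passed limma's adjusted threshold of 0.05 under any of the 16 alternatives, and the smallest adjusted p of a found probe over them was 0.46 (limma). Limma counted 228 probes whose unadjusted p was under 0.05. The count was 539 with the replicate block, 343 with the slide row as a block, 1282 with array weights and 143 to 422 with 1 lung left out. Of those 228, 68.0% were higher. With arrays centred on the median 198 probes were under 0.05 in limma, 52.5% of them higher. In the authors' values it was 200 probes, 44.5% of them higher. The replicate block changed no call of a found probe. Of 348 values under alternatives, 314 kept their direction and 34 changed it. AREG ran from -0.22 (without the aldosterone lung of replicate 2) to 1.13 with 1 lung left out. FGF10, FGF7 and PTCH1 on their brightest probes stayed below 0, and so did the other 3 FGF10 probes. The PTCH1 probes, FGF7 A_70_P041666 and NRG1 could not be fitted with the filter that needs all 8 arrays. With a lung left out the ranges that crossed 0 were -0.66 to 0.19 for FGF7 A_70_P041666, -0.55 to 0.029 for A_70_P041667, -0.26 to 0.0053 for FGF2 A_70_P039492, -0.056 to 0.52 for FGF18, -0.10 to 0.069 and -0.048 to 0.14 for FGFR2, -0.18 to 0.28 and -0.10 to 0.31 for FGFR3, -0.17 to 0.12 for SMO, -0.22 to 0.067 for EGFR and -0.027 to 0.45 for ERBB2. Array weights gave 0.091 for FGFR2 A_70_P041781, -0.10 and -0.091 for FGFR3 and -0.16 for SMO. Median centring gave -0.0011 for FGFR2 A_70_P041782 and -0.018 for SMO. The authors' values gave -0.021 for FGFR2 A_70_P041782, -0.0060 for FGFR3 A_70_P031241 and -0.038 for SMO, and normexp with quantile normalization gave 0.0033 for PTCH1 A_70_P068162 and -0.0010 for SMO. The cause was not tested. PTCH1, FGF1, NRG1 and the FGF7 tag probes lay near background, which limits them.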
